A study of Mus musculus with 246 samples.

Results

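Abcb1b was followed together with 5 other drug efflux transporters, Abcb1a, Abcg2, Abcc1, Abcc4 and Abcc5, in bulk RNA from 6 regions of the adult mouse brain. These 6 genes were selected by name out of 56691 in the table. Abcb1b was chosen by its differences between conditions in the mice without social interaction, so those differences are given as a description, with no test. The question was whether the other transporters move with it.

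All 6 genes encode ABC proteins, membrane pumps that use ATP to move compounds out of cells. Abcb1a and Abcb1b are the mouse genes for P-glycoprotein, which keeps many drugs and glucocorticoids out of the brain. In humans a single gene does this work. In rodent brain Abcb1a is known as the form of capillary endothelial cells, and Abcb1b has been described mainly outside the vessel wall. Abcg2 encodes the breast cancer resistance protein, the other main pump of brain capillaries. Abcc1, Abcc4 and Abcc5 encode multidrug resistance proteins, which export organic anions, conjugates and cyclic nucleotides.

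The mice were outbred adult male CD1 mice. Litters were raised under standard conditions (Ctrl) or with limited bedding and nesting material in the first postnatal days (early life adversity, ELA). At the start of that period the dams received 1 injection of a slow-release gel that was empty (Vehicle, written Veh here) or held SAFit2, an inhibitor of the stress response co-chaperone FKBP51, which reached the pups through the milk. The conditions were Ctrl_Veh, ELA_Veh and ELA_SAFit2, and no group combined standard rearing with SAFit2. One set of mice had no social interaction (NoInteraction, 7 mice per condition). The other was taken after 10 minutes with an unfamiliar mouse (SocialInteraction, 6 Ctrl_Veh, 7 ELA_Veh and 7 ELA_SAFit2 mice). Each of the 41 mice gave 6 libraries, 1 per punched region. These were the ventral hippocampus (vHipp, labelled HC), the dorsomedial thalamus (DMT), the medial prefrontal cortex (mPFC, labelled PFC), the nucleus accumbens (Nacc), the anterior cingulate (ACC) and the basolateral amygdala (BLA). For the Nacc the authors name the shell in their methods and the core in their introduction. The litter of each mouse is not named in the labels, so mice of 1 litter could not be grouped. P-values therefore measure the spread between mice, and litter and condition cannot be told apart within it.

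Library totals were between 20804247 and 43351424 estimated counts. Levels are given as counts per 1000000 (CPM) after scaling of the library sizes. A profile of 60 genes that differ between mice was used to check that the 6 libraries of a mouse came from 1 animal. All libraries of the mPFC, ACC, BLA, DMT and vHipp matched their own mouse best. In the Nacc, 12 libraries, 2 in each of the 6 groups, matched another mouse (correlation with the labelled mouse at most 0.355, with the best match at least 0.868). They were kept under their labels. Log2 differences of Abcb1b in the Nacc are also given without them, and sums and means over the 6 regions include them unless stated. Neuronal, astrocyte, oligodendrocyte, microglial, endothelial and mural marker lists were all detected. The summed choroid plexus markers differed widely between mice, from 17.7 to 978 CPM. In bulk RNA a lower level may come from fewer cells of a type or from less RNA per cell, and these cannot be told apart.

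Abcb1b and Abcb1a lie close together on chromosome 5 in GRCm38, the build of the annotation used here. Abcb1b spans chr5:8798147-8866315 and Abcb1a chr5:8660077-8748575, both on the plus strand. Their coding sequences were 88.0% identical over 3822 aligned bases. Of all 31-base windows of the Abcb1b transcript, 24.9% also occurred in Abcb1a, against 21.4% in the other direction. A read that covers such a window may still hold differing bases outside it, so these are not shares of reads that cannot be assigned. A coding stretch across the start of the longest identical run and the least alike stretch are printed. They show where the sequences of the pair differ little and where they differ much. In exon 13 of 28, a stretch of 120 bases held a single difference, marked by the capital, at chr5:8824695-8824814 in Abcb1b and chr5:8702375-8702494 in Abcb1a (plus strand, GENCODE M21 transcripts):
Abcb1b exon 13: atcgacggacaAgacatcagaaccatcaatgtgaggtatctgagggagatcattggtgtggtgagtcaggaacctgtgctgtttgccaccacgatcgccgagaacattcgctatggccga
Abcb1a exon 13: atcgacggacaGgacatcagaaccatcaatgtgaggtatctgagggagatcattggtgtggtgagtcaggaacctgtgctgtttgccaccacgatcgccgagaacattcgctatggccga

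Exon 16 holds the least alike stretch, 60 bases with 25 differences (capitals), at chr5:8827363-8827422 in Abcb1b and chr5:8714924-8714983 in Abcb1a:
Abcb1b exon 16: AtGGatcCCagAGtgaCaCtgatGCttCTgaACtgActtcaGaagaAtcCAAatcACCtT
Abcb1a exon 16: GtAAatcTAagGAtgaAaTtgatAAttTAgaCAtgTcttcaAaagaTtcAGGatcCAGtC

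The longest run without a difference was 338 bases. The estimated counts of Abcb1b were not whole in 98.8% of the libraries and those of Abcb1a in 98.0%, as happens where the authors' quantification divides reads between genes. For the other transporters this was 0% to 3.66%, and their transcripts shared 0 such windows with any other transporter here. Counts of Abcb1b were low, from 2.19 to 235 per library with a median of 38.9, whereas Abcb1a had 395 to 1655. How much of Abcb1b's level rests on divided reads was not tested.

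Per kilobase of transcript, Abcc5 was the most abundant of the 6 in every region, with regional means of 44.2 to 52.1 CPM per kilobase. Abcb1a followed with 4.49 to 7.12 and Abcc1 with 3.41 to 4.75, except in the BLA, where Abcc1 (4.68) was above Abcb1a (4.49). Abcg2 (1.70 to 2.79) and Abcc4 (2.05 to 2.41) overlapped in range. Abcb1b was lowest with 0.203 to 0.807. It also differed most between mice of a region, with a coefficient of variation of 50.3% to 69.6%, against 5.05% to 19.4% over the other transporters and regions. Between its lowest and highest library in 1 region Abcb1b differed up to 41.5-fold, in the Nacc, and the other transporters at most 2.09-fold. The lowest Nacc library held only 0.0581 CPM of Abcb1b. In the vHipp, where its level was highest, the difference was 6.32-fold. These spreads include differences between conditions, by which Abcb1b was chosen.

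Abcb1b had its highest level in the vHipp. It was at 3.48 ± 1.75 CPM there (SD, n = 41 mice; lowest 1.23, median 3.49, highest 7.77). The next regions were the ACC (1.51 ± 1.03), mPFC (1.48 ± 0.95), BLA (1.47 ± 0.97), DMT (1.14 ± 0.73) and Nacc (0.875 ± 0.61). The vHipp was above the ACC in 41 of 41 mice, while the ACC was above the mPFC in 22 and the mPFC above the BLA in 22, so those 3 neighbours in the order did not separate. Each region was compared with the mean of the other 5 in 1 edgeR fit with the mouse as a block. These fits called most of the 17381 genes, with 86.3% for the DMT, 79.3% for the vHipp, 78.1% for the Nacc, 75.9% for the ACC, 75.0% for the mPFC and 74.9% for the BLA. A call is therefore common, and the size and the direction are what describe a gene. Abcb1b was higher in the vHipp by 1.54 ± 0.07 on the log2 scale (SE, adjusted p = 1.16e-52), and lower in the Nacc (-0.87 ± 0.09, adjusted p = 7.26e-18) and the DMT (-0.51 ± 0.09, adjusted p = 1.61e-08). It was not called in the mPFC, ACC or BLA (-0.06, -0.04 and -0.06). Without the 12 mismatched libraries the Nacc value was -0.97.

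The regional order of the other transporters was not that of Abcb1b. Abcb1a was highest in the DMT (35.6 ± 2.47 CPM), above the next region, the Nacc, in 40 of 41 mice, and lowest in the BLA (22.4 ± 2.98). Its log2 differences were 0.42 ± 0.02 in the DMT (adjusted p = 2.60e-40) and -0.38 ± 0.03 in the BLA (adjusted p = 7.27e-31), and in the vHipp it was -0.04 ± 0.03 (adjusted p = 0.154). In the DMT, where Abcb1a was highest, Abcb1b was below the mean of the other regions. Abcg2 was highest in the mPFC (15.9 ± 1.80 CPM, log2 difference 0.41 ± 0.02) and lowest in the Nacc (9.71 ± 1.42, -0.45 ± 0.02). It was the only other transporter called higher in the vHipp by more than 0.1 on the log2 scale (0.29 ± 0.02, adjusted p = 3.43e-28). Abcc1 was highest in the Nacc (32.3 ± 2.12) and BLA (31.8 ± 2.24), which did not separate (26 of 41 mice), and lowest in the DMT (23.2 ± 1.49). Abcc4 ranged only from 11.7 in the DMT and mPFC to 13.8 ± 2.67 in the BLA. Abcc5 went from 257 ± 13 in the vHipp, its lowest region, to 303 ± 17.4 in the mPFC. The 2 P-glycoprotein genes thus had different highest regions, and none of the other transporters was highest in the vHipp.

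**Figure D1:**
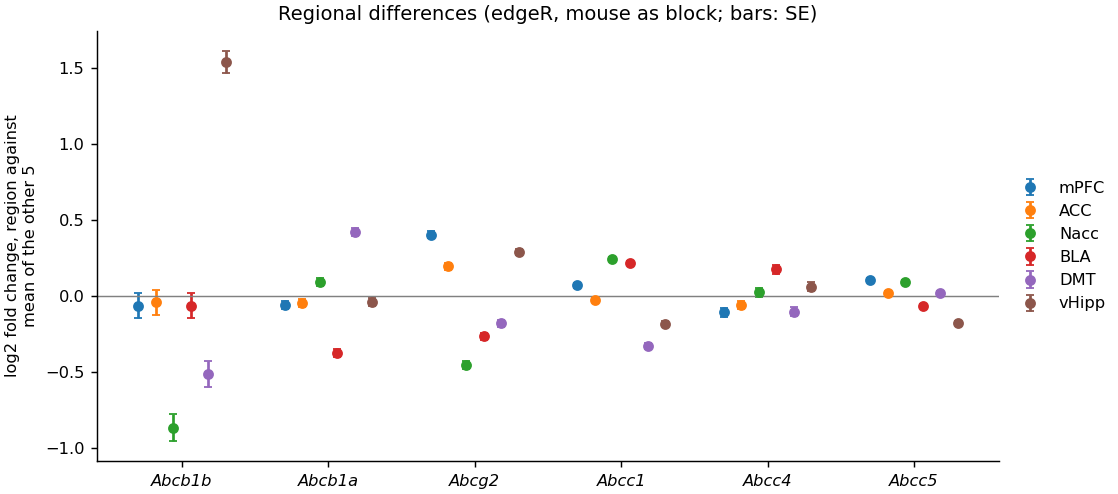
Log2 difference of each region from the mean of the other 5 regions (y axis) for the 6 transporters (x axis), with standard errors from the edgeR fit over 41 mice; colours are regions. Abcb1b in the vHipp, at 1.54, stands farthest from 0, and the other transporters lie between -0.45 and 0.42.

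Within a mouse, the level of Abcb1b was shared by the regions. Averaged over the 5 regions other than the Nacc, the 41 mice were cut into a lower, a middle and an upper range at the widest gaps. The number of ranges was set by this rule. The lower range held 17 mice with 0.523 to 0.986 CPM (median 0.742), the middle range 20 mice with 1.81 to 2.68 (median 2.34) and the upper range 4 mice with 3.70 to 4.23. The gaps between these ranges were 0.95 and 0.49 on the log2 scale, and the next widest gap between neighbouring mice was 0.27. In each of the 5 regions all 17 mice of the lower range were below all 24 other mice, which follows in part from the averaging over those regions. In the mPFC, for example, the lower range reached up to 0.949 and the other mice started at 1.40, and in the vHipp these limits were 2.71 and 3.17. The Nacc did not enter that average. The same order was seen in it without the 12 mismatched libraries, where the 11 mice of the lower range ended at 0.592 and the 18 others began at 0.740. With them, 16 of 17 mice of the lower range exceeded the lowest of the others. How far the middle and upper ranges separated in single regions is not given here. All ranges were set by Abcb1b itself after the values were seen, so no other measure is averaged or tested between them.

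**Figure D2:**
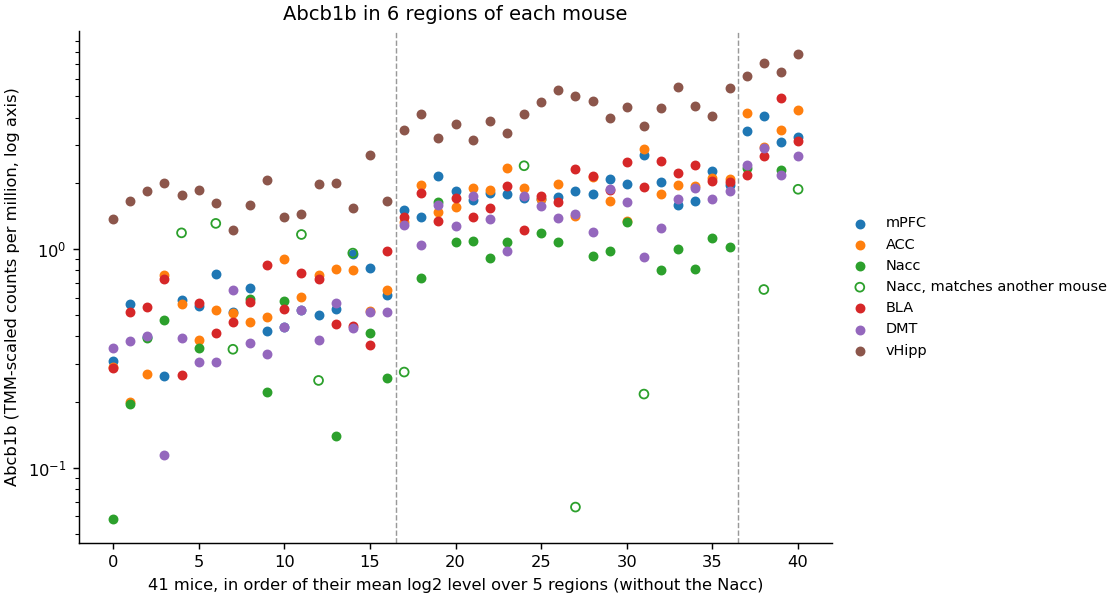
Abcb1b in CPM (y axis, log scale) in the 6 regions of each of 41 mice, ordered from left to right by their mean log2 level over the 5 regions other than the Nacc; dashed lines mark the gaps between the lower, middle and upper ranges. The regions of a mouse rise together, the vHipp is on top, and the open green circles, the 12 Nacc libraries that match another mouse, leave the pattern.

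The likeness between regions was measured as the correlation of mouse deviations from the condition means, averaged over the 10 pairs of the 5 regions. It was 0.88 for Abcb1b (lowest pair 0.84, highest 0.92), and only 82 of 17381 genes (0.472%) had a higher value. The median of all genes was 0.10. Abcc5 had 0.51, Abcg2 0.35, Abcc4 0.26, Abcb1a 0.08 and Abcc1 -0.03. Abcb1a, the paralog beside it, was thus near the middle of all genes. These values describe libraries of the same mice, which share litter, handling and genotype. Abcb1b was chosen for a pattern that recurred across regions in the mice without interaction, which are among the 41. Such a choice can favour genes whose values agree between regions, so its place among all genes is a description. For Abcb1b in the Nacc against the other regions, the correlation over all 41 mice was 0.55. It was 0.89 in the 29 mice whose library matched its label. In the 12 others it was -0.06 with the labelled mouse and 0.91 with the best-matching mouse.

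**Figure D3:**
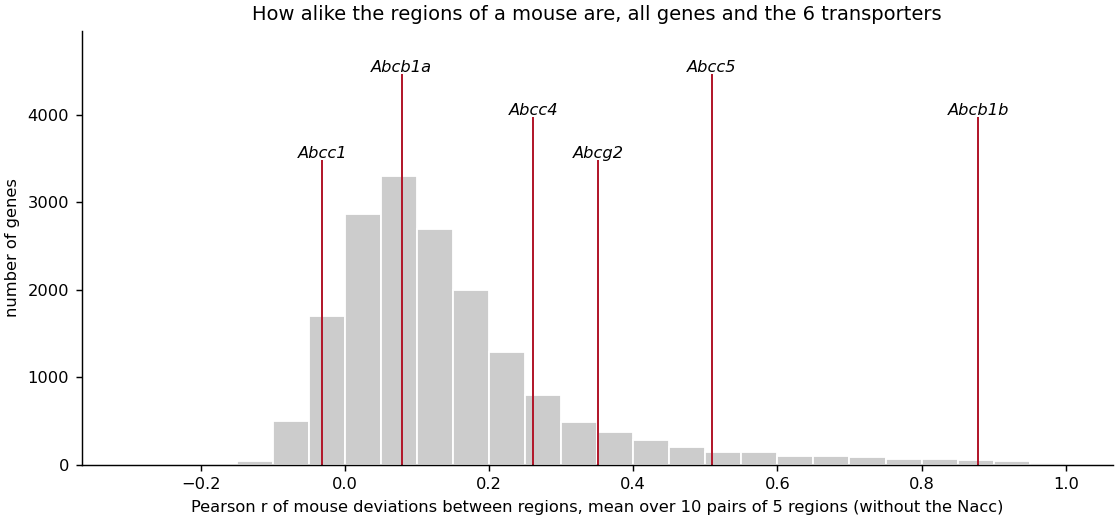
Number of genes (y axis) by the mean correlation of mouse deviations between 5 regions (x axis), for 17381 genes, with the 6 transporters as red lines. Abcb1b lies at 0.88 in the right tail, while Abcb1a at 0.08 and Abcc1 at -0.03 lie in the bulk.

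In the mice without social interaction, which chose Abcb1b, its mean over the 6 regions was 2.08 ± 0.75 CPM in Ctrl_Veh (lowest 0.826, median 2.14, highest 3.38). It was 1.09 ± 0.66 in ELA_Veh (0.585, 0.752 and 2.08) and 2.35 ± 1.03 in ELA_SAFit2 (0.620, 2.20 and 3.75; SD, n = 7 each). The groups overlapped. Over the 5 regions other than the Nacc the means were 2.27 ± 0.94, 1.24 ± 0.77 and 2.57 ± 1.09 CPM in the same order. In the lower range were 1 of 7 Ctrl_Veh, 5 of 7 ELA_Veh and 1 of 7 ELA_SAFit2 mice. With the regions of a mouse summed, the log2 differences were -0.97 ± 0.37 (SE) for ELA_Veh against Ctrl_Veh, 1.13 ± 0.37 for ELA_SAFit2 against ELA_Veh and 0.15 ± 0.36 for ELA_SAFit2 against Ctrl_Veh. ELA_Veh was below Ctrl_Veh in each of the 6 regions, with log2 differences from -0.66 in the vHipp to -1.76 in the Nacc (-1.56 without mismatched libraries). ELA_SAFit2 was above ELA_Veh by 0.77 in the vHipp to 1.93 in the Nacc (2.06 without them). In the vHipp, the lowest, median and highest mouse had 1.62, 4.45 and 7.08 CPM in Ctrl_Veh, 1.66, 2.01 and 5.05 in ELA_Veh and 1.23, 4.72 and 6.48 in ELA_SAFit2. In the ACC these were 0.530, 1.79 and 2.95, then 0.200, 0.762 and 1.66, then 0.509, 2.13 and 4.22. In both regions the median of ELA_Veh was below the other medians, and the ranges of the 3 groups overlapped. These comparisons share the ELA_Veh mice, and the values of 1 gene in 6 regions of the same mice are not 6 independent results. No gene was called in these 3 comparisons (0.0% of 16928).

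The other 5 transporters did not show this size of difference in the same mice. Their summed log2 differences were between -0.05 and 0.05 over the 3 comparisons, and within single regions between -0.19 (Abcb1a in the mPFC, ELA_Veh against Ctrl_Veh) and 0.16 (Abcc4 in the BLA, ELA_SAFit2 against ELA_Veh). Without mismatched libraries Abcg2 in the Nacc was at -0.20 for ELA_SAFit2 against ELA_Veh (-0.17 with them). Abcb1a was at 27.9 ± 1.98 CPM in Ctrl_Veh, 27.7 ± 1.46 in ELA_Veh and 28.6 ± 1.27 in ELA_SAFit2, with log2 differences of -0.01 ± 0.05, 0.05 ± 0.05 and 0.04 ± 0.05 in the order given for Abcb1b. Abcg2 was at 12.8, 12.9 and 12.6, Abcc1 at 28.7, 27.99 and 28.8, Abcc4 at 12.2, 11.9 and 11.9, and Abcc5 at 279, 282 and 277 CPM. Summed endothelial markers had medians of 235, 232 and 236 CPM in these groups, with overlapping ranges. Choroid plexus markers, like Abcb1b, were lowest in ELA_Veh. Their medians were 494 CPM in Ctrl_Veh (103.1 to 781), 190 in ELA_Veh (17.7 to 737) and 406 in ELA_SAFit2 (48.4 to 978). The median log2 difference of the 6 markers was -0.55 for ELA_Veh against Ctrl_Veh (0 of 6 above 0) and 0.46 for ELA_SAFit2 against ELA_Veh (6 of 6 above 0). For ELA_SAFit2 against Ctrl_Veh it was -0.14 (0 of 6 above 0), where Abcb1b was above 0. After social interaction ELA_Veh against Ctrl_Veh gave -0.37 and ELA_SAFit2 against ELA_Veh -0.42, where Abcb1b had values below and above 0. Across the 41 mice the median r of these markers with Abcb1b was -0.03. Their part in the Abcb1b values was not tested.

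The mice with social interaction did not enter the differences that chose Abcb1b, so it was tested in them. Litters are not named, so both sets may hold mice of the same litter. Its mean over 6 regions was 1.84 ± 1.19 CPM in Ctrl_Veh (SD, n = 6; lowest 0.641, median 1.70, highest 3.84). It was 1.15 ± 0.60 in ELA_Veh (n = 7; 0.711, 0.858 and 2.21) and 1.48 ± 0.78 in ELA_SAFit2 (n = 7; 0.446, 1.86 and 2.34). All groups overlapped. The lower range held 2 of 6 Ctrl_Veh, 5 of 7 ELA_Veh and 3 of 7 ELA_SAFit2 mice. The log2 mouse means were compared by an exact permutation test, two-sided, with p-values adjusted over the 3 comparisons. ELA_Veh minus Ctrl_Veh was -0.45 (exact p = 0.328, adjusted 0.687), ELA_SAFit2 minus ELA_Veh 0.28 (exact p = 0.458, adjusted 0.687) and ELA_SAFit2 minus Ctrl_Veh -0.17 (exact p = 0.749, adjusted 0.749). None of these passed the threshold. Without the Nacc the 3 differences were -0.54, 0.29 and -0.25 (exact p = 0.302, 0.530 and 0.641, each adjusted to 0.641).

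The edgeR fit of the summed regions gave Abcb1b log2 differences of -0.67 ± 0.44 (ELA_Veh against Ctrl_Veh, adjusted p = 0.940), 0.39 ± 0.43 (ELA_SAFit2 against ELA_Veh, adjusted p = 0.991) and -0.28 ± 0.44 (ELA_SAFit2 against Ctrl_Veh, adjusted p = 0.9998). With single mice left out in turn, the first ranged from -0.90 to -0.29 and the second from 0.25 to 0.62. An interval of 2 standard errors around the first value holds both 0 and the -0.97 of the mice without interaction, so these data do not show the groups to be alike. edgeR called 0 of 16854 genes in each of the 3 comparisons (0.0%), with 846, 807 and 694 at an unadjusted p under 0.05, and DESeq2 called 8, 20 and 25. None of the 6 transporters was called in any comparison, summed or within a region, where at most 0.00649% of genes were called. By region, the log2 difference of Abcb1b between ELA_Veh and Ctrl_Veh went from -0.05 in the Nacc (-0.03 without mismatched libraries) to -0.88 in the ACC, and that between ELA_SAFit2 and ELA_Veh from 0.25 in the mPFC to 0.48 in the ACC, with 0.47 in the Nacc (0.23 without mismatched libraries). These are values of the same mice, and none was called. In the vHipp, where its counts were highest, the difference was -0.76 ± 0.38 (adjusted p = 0.928), from 4.12 ± 2.24 CPM (1.84, 3.82 and 7.77) to 2.42 ± 1.11 (1.55, 1.77 and 4.50). Without the 6 mice of this set with a mismatched library, the ELA_SAFit2 against Ctrl_Veh difference of Abcb1b was 0.10, with the opposite sign.

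The values of Abcb1a differed by little in these mice, and against Ctrl_Veh in the opposite direction to Abcb1b. It was at 27.1 ± 0.95 CPM in Ctrl_Veh, 28.6 ± 1.23 in ELA_Veh and 28.9 ± 1.14 in ELA_SAFit2. The log2 differences were 0.09 ± 0.03 (ELA_Veh against Ctrl_Veh, adjusted p = 0.940), 0.02 ± 0.03 (ELA_SAFit2 against ELA_Veh, adjusted p = 0.992) and 0.11 ± 0.03 (ELA_SAFit2 against Ctrl_Veh, adjusted p = 0.750). None was called. The ranges overlapped, with 25.9 to 28.6 in Ctrl_Veh (median 27.1), 26.9 to 30.1 in ELA_Veh (29.02) and 27.4 to 30.9 in ELA_SAFit2 (28.7). Summed endothelial markers had medians of 233, 242 and 249 CPM in the same 3 groups (230 to 251, 233 to 252 and 235 to 255). Their part in the Abcb1a values was not tested. The summed log2 differences of Abcg2, Abcc1, Abcc4 and Abcc5 were between -0.09 and 0.05.

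**Figure D4:**
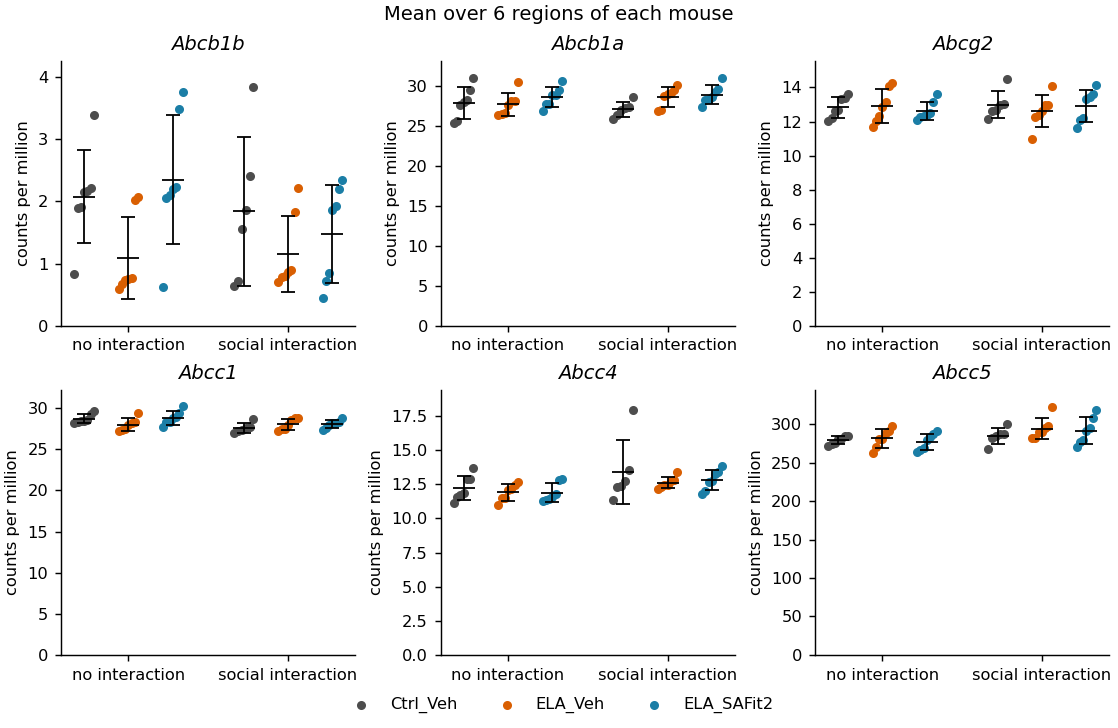
Mean over the 6 regions of each mouse in CPM (y axes from 0) for the 6 transporters, by set and condition; points are mice ordered by value within a group, bars are the mean ± SD (n = 7, or 6 for Ctrl_Veh with social interaction). Abcb1b spreads from 0.446 to 3.84 with a gap inside most groups, while the groups of the other 5 transporters lie close together.

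Social interaction was compared with no interaction over the 41 mice with the regions summed, giving each condition the same weight. This contrast called 1488 of 17381 genes (8.56%), 819 higher and 669 lower after interaction. Of the 6 transporters 1 was called. Abcc4, which exports cyclic nucleotides, prostaglandins and conjugates, rose by 0.11 ± 0.04 on the log2 scale (adjusted p = 0.0431). Without interaction it was at 12.2 ± 0.91 CPM in Ctrl_Veh (11.1, 11.8 and 13.7), 11.9 ± 0.61 in ELA_Veh (10.96, 12.1 and 12.7) and 11.9 ± 0.70 in ELA_SAFit2 (11.3, 11.5 and 12.9). After it the values were 13.4 ± 2.35 (11.4, 12.6 and 18.0), 12.6 ± 0.42 (12.2, 12.5 and 13.4) and 12.8 ± 0.74 (11.8, 12.7 and 13.8). The sets overlapped in each condition, and 1 Ctrl_Veh mouse after interaction was at 18.0, above the next at 13.5. Without that mouse the difference was 0.08 (adjusted p = 0.0633), and the call was lost in 22 of 41 fits that left out 1 mouse and without the Nacc (adjusted p = 0.0832).

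Abcc5 was higher by 0.05 ± 0.02 (adjusted p = 0.0635) and Abcc1 differed by -0.03 ± 0.01 (adjusted p = 0.0990). Neither was called. Abcb1b differed by -0.26 ± 0.24 (adjusted p = 0.586), Abcb1a by 0.01 ± 0.02 (adjusted p = 0.928) and Abcg2 by -0.01 ± 0.03 (adjusted p = 0.909). A test of whether this difference varied between regions called 115 genes (0.662%) and none of the 6 transporters, with Abcg2 nearest at an adjusted p of 0.281 (0.0486 without the Nacc).

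Genes related to the 6 transporters were read in the same contrast, in which 8.56% of all genes were called. The lists are small, and nothing particular to them is read from their counts. Of 13 other ABC transporters, 0 rose and 3 fell, namely Abcc6 (-0.39 ± 0.05, adjusted p = 2.20e-05), the cholesterol exporter Abca1 (-0.11 ± 0.03, adjusted p = 0.00521) and the sterol transporter Abcg4 (-0.03 ± 0.01, adjusted p = 0.0226). Of 14 blood-brain barrier transporters and junction genes, 2 rose and 2 fell. Mfsd2a, the carrier of lysophospholipids into the brain, rose by 0.44 ± 0.06 (adjusted p = 4.66e-05) and Slco1c1, a thyroxine carrier, by 0.09 ± 0.02 (adjusted p = 0.0118). The organic anion carrier Slc22a8 (-0.28 ± 0.06, adjusted p = 0.00221) and the monocarboxylate carrier Slc16a1 (-0.24 ± 0.06, adjusted p = 0.00721) fell. Of 10 known or proposed regulators of Abcb1 genes, 2 rose and 1 fell. Fkbp5, which encodes FKBP51 and is a glucocorticoid target, rose by 0.27 ± 0.07 (adjusted p = 0.00655) and the heat shock factor Hsf1 by 0.07 ± 0.02 (adjusted p = 0.00703), and Trp53 differed by -0.05 ± 0.01 (adjusted p = 0.0102). The medians over these lists were -0.03, -0.02 and 0.00, beside 0.00 for all genes tested. Among 10 endothelial markers Ly6c1 (0.28 ± 0.05, adjusted p = 0.000184) and Slco1c1, which is in both lists, rose, and Tie1 (-0.09 ± 0.03, adjusted p = 0.0305) fell. Among 7 mural markers Vtn fell (-0.12 ± 0.04, adjusted p = 0.0472), and among 6 meningeal fibroblast markers none was called (all 6 values below 0, median -0.14). Of 6 astrocyte markers 2 rose, and of 6 microglia markers 1 fell. No choroid plexus, oligodendrocyte, neuron or red cell marker was called. The part of these cells in the transporter values was not tested.

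Whether Abcb1b moved with the other transporters between mice was tested on deviations from the condition mean, with 100000 permutations of mice within conditions and adjustment over 17380 genes. Since Abcb1b falls into ranges, the correlation over 41 mice mixes differences between the ranges with those inside them, and it is given with the values inside the lower (17 mice) and middle (20 mice) range. With Abcb1a it was r = 0.30 (Spearman's rho 0.26, permutation p = 0.0558, adjusted p = 0.931). Leaving out the 2 mice farthest from the median of Abcb1b gave 0.23. Without the Nacc it was 0.19, in the mice without interaction 0.50 and in those with interaction 0.10. Inside the lower range it was 0.01 and inside the middle range -0.14. Each range holds a small part of the spread of Abcb1b and few mice, so these values are not set against the pooled one. By region it ranged from -0.24 in the BLA to 0.42 in the DMT. With the mean of the endothelial markers regressed out it was 0.26. No relation of Abcb1b with its paralog passed the threshold, and 637 of 17380 genes had a higher r.

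None of the other transporters was called with Abcb1b either. Abcc1 had r = 0.21 with Abcb1b (rho 0.13, permutation p = 0.209, adjusted p = 0.958), Abcg2 0.10 (rho 0.05, permutation p = 0.576, adjusted p = 0.984), Abcc4 -0.11 (rho -0.03, permutation p = 0.612, adjusted p = 0.984) and Abcc5 -0.06 (rho -0.04, permutation p = 0.741, adjusted p = 0.985). Without the 2 farthest mice these were 0.25, 0.02, -0.15 and -0.05. Inside the lower range they were 0.29, -0.30, -0.31 and -0.31, and inside the middle range 0.26, -0.04, -0.15 and 0.08. No adjusted p of Abcc1 was below 0.05 inside the ranges or over all mice. Without the Nacc Abcc1 was at 0.13, and by region it went from -0.10 in the DMT to 0.28 in the BLA. No gene of the lists of other ABC transporters, barrier genes, regulators or any of 9 cell type lists was called with Abcb1b either. Their list medians were 0.07, 0.03 and 0.03 for the first 3, beside -0.01 over all genes, and from -0.10 (microglia) to 0.19 (oligodendrocytes) for cell types, with 0.14 for endothelial and 0.13 for mural markers.

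Of the 5 genes most like Abcb1b across the 41 mice, 3 lay near it on chromosome 5. By r the first 5 of 17380 were Tmem243 (0.75), Dbf4 (0.75), Dolk (0.63), Nhlrc3 (0.60) and Crot (0.60). Tmem243 encodes a small membrane protein, Dbf4 the activator of the replication kinase Cdc7, Dolk dolichol kinase and Crot a peroxisomal carnitine octanoyltransferase. Tmem243, Dbf4 and Crot are neighbours of Abcb1b at distances of 234, 375 and 99.7 kilobases, whereas Dolk is on chromosome 2 and Nhlrc3 on chromosome 3. The lowest 3 were Scn3b, Ywhae and Fermt3 (-0.53 each). With 100000 permutations no gene was called (0.0%), since the smallest p they can give, 1e-05, reached by Tmem243 and Dbf4, is adjusted to 0.0869. A run of 1000000 permutations, added after the values were seen, gave 1e-06 for both, again the smallest possible, and an adjusted p of 0.00869 (0.0174 and 0.0261 without the Nacc). Without the 2 farthest mice r was 0.68 for Tmem243 and 0.70 for Dbf4. At an unadjusted p under 0.05 there were 919 genes.

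The neighbours did not all follow. Of 7 genes around Abcb1b, Dmtf1, a cyclin D-binding transcription factor that overlaps Tmem243 on the opposite strand, had r = 0.53, Abcb4, the phospholipid transporter 27.4 kilobases away, -0.32, Slc25a40 0.05 and Rundc3b 0.00. Abcb1a itself lies nearer to Abcb1b than Dbf4, Tmem243 or Crot do and had 0.30. By region, r was between 0.51 and 0.66 for Tmem243 and between 0.28 and 0.45 for Dbf4. Over the levels of the 29 mice without a mismatched library it was between 0.43 and 0.65 for Tmem243 and between 0.08 (BLA) and 0.46 for Dbf4. Inside the ranges, with 17 and 20 mice and no adjusted p below 0.05, the values were unlike. Dbf4 had 0.50 in the lower and 0.47 in the middle range, Tmem243 0.21 and -0.07, Crot -0.03 and -0.48, Dmtf1 -0.21 and -0.21 and Abcb4 0.61 and 0.04. The ranges were cut on Abcb1b itself and each holds a small part of its spread, which can lower r. The values inside them are therefore not set against those over 41 mice. Likeness between regions of a mouse was high for Dmtf1 (0.70), Crot (0.59) and Tmem243 (0.58), and lower for Dbf4 (0.10), Abcb4 (0.19), Slc25a40 (0.03) or Rundc3b (-0.03). These genes share libraries and depth with Abcb1b. Whether the counting used strand is not given in the sources used here, so reads of the overlapping pair Tmem243 and Dmtf1 may be counted for either.

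**Figure D5:**
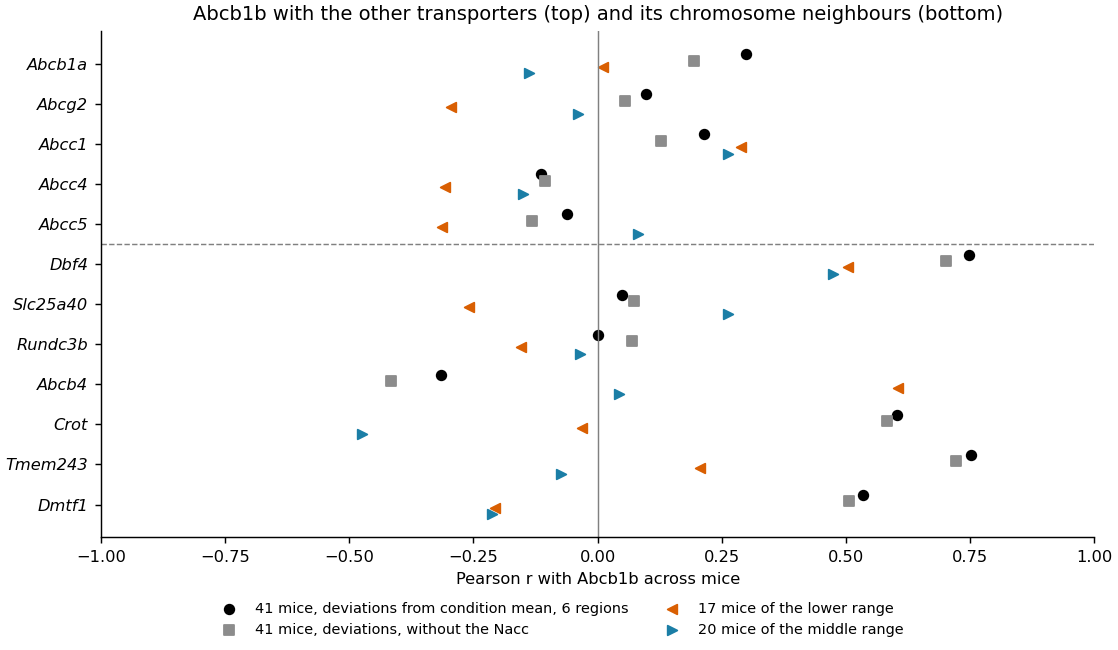
Pearson correlation of Abcb1b across mice (x axis) with the other 5 transporters (above the dashed line) and 7 chromosome neighbours (below it), over 41 mice with all regions (circles) or without the Nacc (squares), and inside the lower (orange, 17 mice) and middle (blue, 20 mice) ranges of Abcb1b. Tmem243 and Dbf4 lie at 0.75 over 41 mice and Abcb1a at 0.30. Values inside the ranges use levels over 5 regions without the Nacc, with no condition mean subtracted. They are not set against those over 41 mice.

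Among the other 5 transporters, 1 pair was called. Abcg2 and Abcc4 had r = 0.57 over 41 mice (rho 0.57, permutation adjusted p = 0.0404 in the test of Abcg2 and 0.0243 in that of Abcc4). By rho the adjusted p was 0.0511 in the test of Abcg2, which is not below 0.05, and 0.0395 in that of Abcc4. Without the Nacc it was 0.54, and without the 2 mice farthest from the median 0.50 for Abcg2 and 0.53 for Abcc4. These tests called 87 genes (0.501%) for Abcg2 and 258 (1.48%) for Abcc4. Both were called with the glucose carrier Slc2a1 (r = 0.53 and 0.79), Abcg2 also with the amino acid carrier Slc7a5 (r = 0.62) and Abcc4 with the oxidative stress regulator Nfe2l2 (r = 0.58). Slc2a1 with Abcc4 fell to 0.54 without the 2 farthest mice. Abcc4 was also called with 2 of 6 meningeal fibroblast markers, Col1a2 (0.49) and Slc13a4 (0.47), whose part in these relations was not tested.

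Abcc5, which exports cyclic nucleotides and conjugates, was called with 2011 genes (11.6%). Among the 14 barrier genes it was called negative with 4, namely Slco1a4 (-0.73), Tfrc (-0.61), Slc16a1 (-0.55) and Slc22a8 (-0.54), and positive with Lrp1 (0.50). Most of the list went the other way from those 4, with r above 0 for 9 of 14 and a median of 0.11. Of 6 microglia markers, 10 regulators and 7 neighbours, 1 each was called positive. It was also negative with 3 of 6 meningeal fibroblast markers, with -0.54 for Lum. The part of meningeal cells was not tested. For Abcb1a, which in capillaries works beside these carriers, 0 genes were called at an adjusted p below 0.05 (1539 at an unadjusted p under 0.05), and for Abcc1 0 as well (1485). The list medians of Abcb1a were 0.24 for endothelial, 0.38 for mural and 0.43 for meningeal fibroblast markers, beside 0.00 over all genes.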

How the data were processed

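Bulk poly-A RNA-seq libraries of 6 brain regions from 41 mice were used. The authors deposited 1 table of estimated counts per gene, made with salmon. The submitters' processing notes also name STAR, DESeq2 and GRCm39, with no roles. The version and strand setting of the quantification are not given in the sources used here. Of the values 12.12% were not whole (tolerance 0.01), and all were rounded to whole numbers. Division of reads between near-identical genes can move the values of Abcb1b and Abcb1a.

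Of 56691 genes, 52073 identifiers matched GENCODE M21 (GRCm38) and 978 more a RefSeq symbol. A protein-coding gene entered a test when its counts summed to 100 or more and 6 or more libraries had a count, which left 17381 genes over all libraries. Condition and social interaction tests used edgeR 4.0.16 (R 4.3.3), quasi-likelihood, TMM normalization, with the 6 regions of a mouse summed or within a region. Region tests kept the mouse as a block, because the mouse number ties the 6 libraries of an animal. Conditions share no mice. P-values of these fits were adjusted (Benjamini-Hochberg) over all genes tested, with a threshold of 0.05, and those of the exact tests of Abcb1b over 3 comparisons. DESeq2 1.42.0 was an alternative.

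Between-mouse correlations used log2(CPM + 0.1) averaged over regions, as deviations from the condition mean within each set, with 100000 permutations of mice within groups (NumPy 2.4.6). Inside the ranges of Abcb1b they used levels over the 5 regions other than the Nacc. There no condition mean was subtracted, and mice were permuted over the whole range. A family of 17380 correlations was adjusted for each of the 6 transporters. Cell type markers, other ABC transporters, barrier genes, regulators and chromosome neighbours were fixed lists. The named genes were the 6 transporters, the 5 highest and 3 lowest correlations with Abcb1b, list genes past the threshold, and the 7 neighbours. Not every list gene past the threshold is named. The members and lists were chosen with earlier results of these data known. On simulated counts for ELA_Veh against Ctrl_Veh after social interaction (16854 genes), 84% of 100 genes changed by 1 on the log2 scale were called, 67% of 100 changed by 0.5, and 3 of 16654 unchanged genes. The changed genes were drawn at random. These rates therefore do not tell how often a change in Abcb1b, with its few counts and wide spread, would be called.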

Additional observations from a re-analysis of the deposited data

Results flagged for a closer look

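In groups of 6 or 7 mice, a highest or lowest value was marked where its gap to the next mouse took more of the group's range than Dixon's 95% limit allows. Of 72 groups tested 6 were marked, and chance marks about 1 in 20. For Abcb1b these were a Ctrl_Veh mouse without interaction at 4.059 CPM in the mPFC (next 2.17), an ELA_SAFit2 mouse without interaction at 4.903 in the BLA (next 2.196) and an ELA_Veh mouse without interaction at 0.9803 in the Nacc (next 0.3517), whose library matched its own mouse. Over the 6 regions, the highest Abcb1a mean of ELA_Veh without interaction was 30.51 CPM (next 28.12), the highest Abcc5 mean of ELA_Veh after interaction 322.1 (next 298.5), and the highest Abcc4 mean of Ctrl_Veh after interaction 17.96 (next 13.53). Leaving out the last mouse gave Abcc4 its smallest difference between social interaction and none, 0.08 on the log2 scale with an adjusted p of 0.0633.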

How the results depend on the processing

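Abcb1b had few counts per library and a standard error of about 0.44 on the log2 scale in the condition comparisons. No condition comparison of the 6 transporters after social interaction was called under any setting. RLE normalization, a higher count filter, all 41 mice in 1 model, a pseudocount of 0.5, Spearman's rho and leaving out the 2 farthest mice turned no direction of the condition, region and social interaction values they were run on, nor of the correlations of Abcb1b with the other 5 transporters, the 8 genes at the ends of the order and the 7 neighbours. Between the other transporters, leaving out the 2 mice farthest in the first gene turned Abcc1 with Abcg2 (0.07 to -0.14), Abcc1 with Abcb1a (0.11 to -0.02), Abcc1 with Abcc4 (0.10 to -0.0021) and Abcc4 with Abcc5 (0.21 to -0.028), and Abcc4 with Abcb1b (-0.11 to 0.11). The causes of the changes given here were not tested.

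With the mouse as a block or without it, the region counts were close, 13036 and 12762 genes in the mPFC. Without the block, Abcb1a in the mPFC (-0.05, adjusted p = 0.0589) and Abcc4 in the vHipp (0.06, adjusted p = 0.0651) were not called, and no direction turned. DESeq2 called 8, 20 and 25 genes for ELA_Veh against Ctrl_Veh, ELA_SAFit2 against ELA_Veh and ELA_SAFit2 against Ctrl_Veh, where edgeR called 0. By region it called 3 and 3 in the mPFC (first 2 comparisons), 3, 3 and 9 in the ACC, 3, 1 and 2 in the Nacc, 2, 9 and 4 in the BLA, 3 and 15 in the DMT (last 2) and 2, 3 and 5 in the vHipp. For social interaction against none, DESeq2 called Abcc5 (0.053, adjusted p = 0.0418). The Abcc4 call was lost without a count filter (0.11, adjusted p = 0.0541) and without the Nacc (0.10, adjusted p = 0.0832). Without the Nacc, Abcb1a (-0.0086), Abcc1 in ELA_SAFit2 against ELA_Veh (0.0055) and Abcg2 in ELA_SAFit2 against Ctrl_Veh (-0.0037) changed sign. Abcg2 was then called in the test of social interaction by region (adjusted p = 0.0486).

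Without a count filter the sign turned for Abcc1 in the BLA (ELA_SAFit2 against ELA_Veh, -0.00060) and Abcc5 in the Nacc (ELA_Veh against Ctrl_Veh, -0.00022), and 0 genes in place of 1 were called in the BLA for ELA_SAFit2 against ELA_Veh. Without mismatched libraries Abcc4 in the vHipp was not called (0.06, adjusted p = 0.0655), Abcc5 in the DMT was (0.02, adjusted p = 0.0342), and Abcg2 in the Nacc was at -0.0071 (ELA_SAFit2 against Ctrl_Veh). Without the mice that have one, ELA_SAFit2 against ELA_Veh turned for Abcb1a (-0.039), Abcc4 (-0.0068) and Abcc5 (0.030), and ELA_SAFit2 against Ctrl_Veh for Abcb1b (0.10) and Abcg2 (-0.019).

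Leaving out 1 mouse at a time, each condition comparison called 0 to 1 genes and social interaction 1167 to 1769. Log2 differences for social interaction against none went from 0.077 to 0.125 for Abcc4 (called in 19 of 41), 0.045 to 0.058 for Abcc5 (called in 7), -0.0027 to 0.015 for Abcb1a and -0.019 to 0.00047 for Abcg2. For Abcb1b they went from -0.90 to -0.29 for ELA_Veh against Ctrl_Veh and 0.25 to 0.62 for ELA_SAFit2 against ELA_Veh. For ELA_SAFit2 against Ctrl_Veh they went from -0.46 to 0.098 for Abcb1b, -0.12 to 0.031 for Abcc4 and -0.017 to 0.041 for Abcg2. For ELA_SAFit2 against ELA_Veh they went from -0.013 to 0.0027 for Abcc1, -0.0016 to 0.037 for Abcc4 and -0.035 to 0.0089 for Abcc5, and for ELA_Veh against Ctrl_Veh from -0.14 to 0.012 for Abcc4.

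With 1000000 permutations, added after the values were seen, 2 genes were called with Abcb1b, and 2 without the Nacc, in place of 0. Among correlations with Abcb1b, signs turned for Abcc4 (0.19), Rundc3b (-0.15) and Slc25a40 (-0.14) in the mice without interaction, and for Abcc5 (0.042) and Abcg2 (-0.021) in those with it. Rundc3b was at -0.0018 with a pseudocount of 0.02. Inside the lower range they turned for Abcb4 (0.61), Abcg2 (-0.30), Crot (-0.031), Dmtf1 (-0.21), Rundc3b (-0.16) and Slc25a40 (-0.26), and inside the middle range for Abcb1a (-0.14), Abcb4 (0.044), Abcc5 (0.081), Abcg2 (-0.040), Crot (-0.48), Dmtf1 (-0.21), Rundc3b (-0.036), Scn3b (0.20) and Tmem243 (-0.073). The values inside the ranges also differ in measure, with the Nacc left out and no condition mean subtracted.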

Other observations

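Abcc5 and Abcg2 also kept part of their level from region to region within a mouse. For Abcc5 the correlation between pairs of the 5 regions other than the Nacc was between 0.33 and 0.71, and 787 of 17381 genes (4.53%) had a higher mean. For Abcg2 it was between 0.08 and 0.65, with 1671 genes higher. Abcb1a went from -0.28 to 0.37 and Abcc1 from -0.27 to 0.14. Beyond the called pair of Abcg2 and Abcc4, Abcb1a had r = 0.31 with Abcg2 (adjusted p = 0.579 by permutation in the test of Abcb1a) and -0.29 with Abcc5 (adjusted p = 0.573), over 41 mice. All 6 oligodendrocyte markers were below 0 with Abcg2 (median -0.33), with Abcc1 (-0.17) and with Abcc4 (-0.35), and all 6 above 0 with Abcb1b (0.19), with no marker called in any of these.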
